A study of Mus musculus with 4 samples.

Results

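The transcripts described here encode 10 spindle and dynein proteins that have been tied to B-type lamins during mitosis. They are Ndel1, Nde1, Pafah1b1, Dync1h1, Dctn1 and Numa1 on the dynein side, and Tpx2, Aurka, Plk1 and Bub1b on the side of the mitotic kinases and the checkpoint. All 10 symbols had 1 row each among the 37991 genes of the count table, and all 10 passed the filter on low counts. RNA sequencing was run on mouse embryonic stem cells (mESC) that lacked both B-type lamins (dKO) and on wild-type mESC (wt), with 2 biological replicates of each genotype. All 4 libraries carried the strain label ZHBTc4, a mouse embryonic stem cell line known for having both endogenous Oct4 (Pou5f1) alleles disrupted and a tetracycline-repressible Oct4 transgene in their place. The labels name no drug treatment and do not say how many clones or cultures stand behind a genotype. An effect of lamin loss and a difference between lines therefore cannot be told apart, and p-values measure only the spread between these libraries.

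Lamin B1 and lamin B2 form filaments under the inner nuclear membrane in interphase. In Xenopus egg extracts, lamin B also takes part in a membranous spindle matrix that assembles around microtubules in mitosis. Its assembly there needs dynein, the motor that walks towards microtubule minus ends, and Nudel, the protein that Ndel1 encodes. Aurora-A, the kinase encoded by Aurka, promotes spindle assembly once TPX2 binds and activates it under the control of the small GTPase Ran. In dividing cells the transcripts of such mitotic kinases build up late in the cell cycle, while dynein subunits are also used for cargo transport throughout it. Embryonic stem cells divide fast.

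Lmnb1 and Lmnb2, which checked the genotype labels, matched them. Lmnb1 had 69 and 101 counts in the dKO libraries and 8538 and 8321 in the wt libraries, and Lmnb2 had 41 and 55 counts in the dKO libraries and 1343 and 1787 in the wt libraries. Total counts per library were 16697970 and 16584014 in dKO cells and 12899964 and 14941952 in wt cells. Each spindle partner was deeply covered, with 655 to 20489 counts in a library. Markers of embryonic stem cells were high in every library, and 10 of 10 were tested, with a summed level of 7062 and 7246 CPM (counts scaled to library size, with TMM factors) in dKO libraries and 6272 and 6105 CPM in wt libraries. The log2 fold change was above 0 for 5 of these markers and below 0 for 5 (median 0.02). Zfp42 had 1449 and 1435 CPM in dKO libraries and 666 and 613 CPM in wt libraries. Klf4 had 192.5 and 241.9 CPM in dKO libraries and 136.3 and 155.7 CPM in wt libraries. Esrrb was also higher in both dKO libraries than in both wt libraries, while Dppa5a and Utf1 were lower. Of 9 markers of feeder fibroblasts 5 passed the filter, with sums of 6.999 and 33.7 CPM in dKO libraries and 12.4 and 48.5 CPM in wt libraries. Among those that did not pass, Col3a1 had 7 and 1 counts in dKO libraries and 3 and 4 in wt libraries. In the same order, Postn had 0 and 2 against 0 and 3, Lum 0 and 0 against 1 and 1, and Dcn 1 and 3 against 2 and 3. Trophoblast markers summed to 263 and 509 CPM in dKO libraries and 412 and 678 CPM in wt libraries over 7 tested genes. The feeder and trophoblast sums were both higher in the replicate 2 library of each genotype, and most of the rise came from few genes. Acta2 alone had 2.64 and 28.2 CPM in dKO libraries and 5.63 and 36.8 CPM in wt libraries. Krt8 had 64.2 and 175.7 CPM in dKO libraries and 127.5 and 249.5 CPM in wt libraries, and Krt18 was similar. Other markers rose in replicate 2 of both genotypes too. Gata3 had 6.88 and 15.3 CPM in dKO libraries and 8.68 and 19.0 CPM in wt libraries. Hand1 and Eomes also rose in both, as did Col1a2 and Pdgfrb at low levels. Not all markers rose: Thy1 and Tfap2c fell in wt replicate 2, Col1a1 in dKO replicate 2, and Cdx2 in replicate 2 of both genotypes. Primitive endoderm markers summed to 25.0 and 22.9 CPM in dKO libraries and 21.3 and 21.8 CPM in wt libraries over 5 genes, and neural markers to 98.4 and 67.6 CPM in dKO libraries and 127 and 78.4 CPM in wt libraries over 3 genes. Log2 fold changes, dKO over wt, were below 0 for 5 of 5 tested feeder markers (median -0.83) and 6 of 7 trophoblast markers (median -0.325). The trophoblast median was 0.06 without wt replicate 2. Below 0 were also 2 of 5 primitive endoderm markers (median 0.50) and 2 of 3 neural markers (median -0.32). The part of these markers in the values below was not tested.

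None of the 10 transcripts passed the test between dKO and wt cells. In edgeR's quasi-likelihood test, with Benjamini-Hochberg adjustment over 14027 tested genes and a threshold of 0.05, 0 of 10 were called, where the share over all tested genes was 0.0855%. At an unadjusted p under 0.05 there was 1 spindle partner, Bub1b, where the share over all tested genes was 5.57%. DESeq2 also called 0 of 10, with 0.698% of the genes it adjusted called, and limma-voom 0 of 10, with 0.0356% of all tested genes called. At these low shares a count of 0 among 10 genes is near the background. In simulated counts the edgeR test called 12% of genes changed 1.5-fold and 38% of genes changed 2-fold. An uncalled gene is therefore not shown to be unchanged. Over all tested genes, 6966 log2 fold changes, dKO over wt, were positive and 7061 negative. Those of the spindle partners were positive for 9 transcripts and negative for 1, and ran from -0.02 (Aurka) to 0.32 (Bub1b). Their median was 0.09, beside a median of -0.002 over all tested genes, and it was 0.01 without dKO replicate 1, 0.05 without wt replicate 2, 0.16 without wt replicate 1 and 0.19 without dKO replicate 2. Disregarding sign, the median was 0.09, and 0.16 over all tested genes, which were not matched to the 10 in expression level.

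The data bound how much these transcripts could have differed. The 95% interval of the log2 fold change lay within 1 of 0, that is within a 2-fold change, for all 10 transcripts, and for 65.5% of all tested genes. It lay within a 1.5-fold change in either direction for 8 of them and for 37.2% of all tested genes. The other 2, Bub1b and Dync1h1, had intervals that reached past 1.5-fold on the higher side only. The median standard error of the log2 fold change was 0.125 for these 10 transcripts and 0.212 over all tested genes. All tested genes include many of low expression, so these shares are not those of genes matched in level. The dKO and wt libraries did not overlap in CPM for 5 of 10 transcripts, and for 33.6% of all tested genes. Of these 5, Nde1, Pafah1b1, Dync1h1 and Bub1b were higher in both dKO libraries and Aurka was lower.

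**Figure D1:**
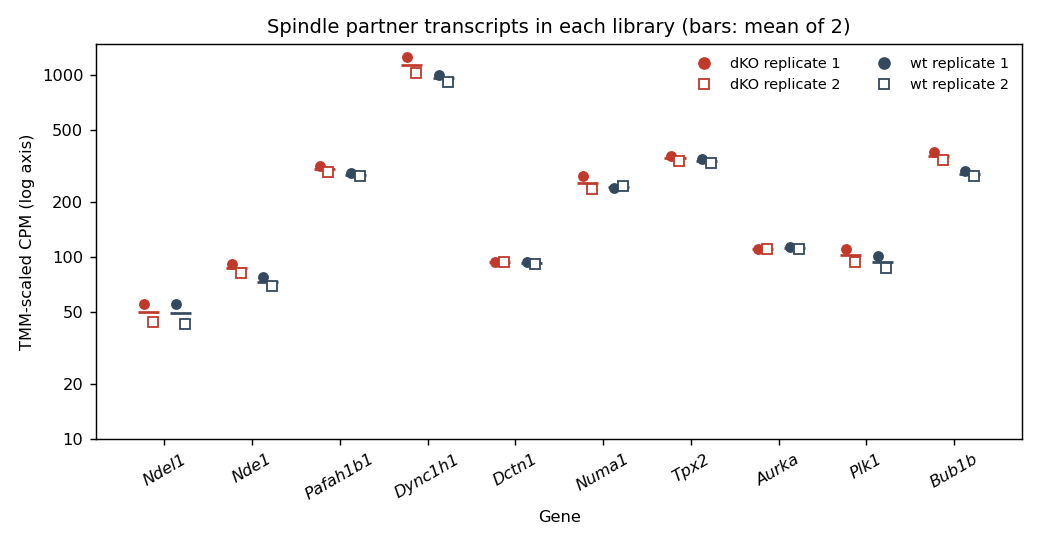
TMM-scaled CPM of each transcript (log axis) in the dKO libraries (red) and wt libraries (dark blue); filled circles are replicate 1, open squares replicate 2, and bars the mean of 2. The genotypes separate for Nde1, Pafah1b1, Dync1h1, Bub1b and, by a small margin, Aurka, and the gaps are small beside the range of levels between genes.

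Promoters of 5 genes, the sequence around the gene start, are shown before the values. Aurka, Plk1, Bub1b and Nde1 are those with the letters CCAAT on either strand, and Ndel1 is the paralog of Nde1. Those of Pafah1b1, Dync1h1, Dctn1 and Numa1 are not printed. Genes whose transcripts peak late in the cell cycle often carry a short element known as CHR (cell cycle genes homology region), TTTGAA, close to the start, frequently with CCAAT boxes upstream. RefSeq promoter sequences (GRCm38.p6), from 250 bases before to 50 after each start, were found for 9 of 10 genes, and Dctn1 had 2 of them. Tpx2 had none. TTTGAA, its variant TTCGAA and CCAAT were searched on both strands, and no match of one overlapped a match of another. The last 150 bases of each window are printed 5′ to 3′ on the strand of the gene, with every match of TTTGAA or CCAAT, or of a reverse complement, in capitals. They lie at chr2:172370521-172370670 on the minus strand (Aurka), chr7:122159335-122159484 on the plus strand (Plk1), chr2:118598111-118598260 on the plus strand (Bub1b), chr16:14163175-14163324 on the plus strand (Nde1) and chr11:68853086-68853235 on the minus strand (Ndel1).
Aurka: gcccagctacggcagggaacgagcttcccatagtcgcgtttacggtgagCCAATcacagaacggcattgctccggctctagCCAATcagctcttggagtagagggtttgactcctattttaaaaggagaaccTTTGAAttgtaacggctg
Plk1: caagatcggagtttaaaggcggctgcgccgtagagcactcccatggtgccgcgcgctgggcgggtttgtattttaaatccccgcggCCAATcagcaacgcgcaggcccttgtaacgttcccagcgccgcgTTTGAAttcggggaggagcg
Bub1b: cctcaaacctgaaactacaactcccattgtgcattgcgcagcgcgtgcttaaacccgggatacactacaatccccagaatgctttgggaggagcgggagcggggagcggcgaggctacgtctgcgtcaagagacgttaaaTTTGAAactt
Nde1: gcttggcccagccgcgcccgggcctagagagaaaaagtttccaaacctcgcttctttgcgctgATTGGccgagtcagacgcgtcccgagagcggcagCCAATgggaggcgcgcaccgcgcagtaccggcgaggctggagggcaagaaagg
Ndel1: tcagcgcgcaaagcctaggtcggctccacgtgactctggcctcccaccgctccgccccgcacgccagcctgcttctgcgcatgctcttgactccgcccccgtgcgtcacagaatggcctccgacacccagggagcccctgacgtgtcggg

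Aurka, Plk1 and Bub1b each had TTTGAA within 50 bases of the start, on the strand of the gene, at positions 33, 31 and 41 counted from 1 at the start. Among all 32851 promoter sequences of this length 4.9% had TTTGAA within 50 bases of the start on either strand. In the whole window of 300 bases TTTGAA was found in 4 of the 9 genes, the fourth being Dctn1 at position -207 in 1 of its 2 promoters, and in 17.9% of all promoters. CCAAT was found in 4 of the 9, namely Aurka, Plk1, Bub1b and Nde1, and in 37.4% of all promoters. In Bub1b the match was the reverse complement at position -113, which lies before the printed bases. TTTGAA and CCAAT occurred together in 3 of the 9 and in 7.0% of all promoters. TTCGAA was found only in Bub1b among the 9, at position -188, and in 1.6% of all promoters. Nde1 had CCAAT at position -3 and its reverse complement at -37 with no TTTGAA. Its paralog Ndel1 had neither, and Pafah1b1, Dync1h1 and Numa1 also had neither. These are matches of letters in a fixed window and say nothing of which factor was bound in these cells.

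The paralogs Ndel1 and Nde1 encode coiled-coil proteins that join LIS1 to dynein. Ndel1 (ENSMUSG00000018736, chromosome 11, 68634936 to 68685360 in the table's own build) had 55.3 and 44.0 CPM in dKO libraries and 55.2 and 43.1 CPM in wt libraries. The genotypes overlapped almost fully, and replicate 2 was the lower library in both. The log2 fold change of Ndel1 was 0.02 (SE 0.19, 95% interval -0.45 to 0.48, edgeR adjusted p = 0.995), and its sign turned with the libraries used, from -0.15 without dKO replicate 1 or wt replicate 2 to 0.18 without dKO replicate 2 and 0.20 without wt replicate 1. Nde1 (ENSMUSG00000022678, chromosome 16, 14163368 to 14193021) had 91.8 and 81.8 CPM in dKO libraries and 77.7 and 69.0 CPM in wt libraries. Both dKO libraries were above both wt libraries, yet the log2 fold change of 0.24 (SE 0.13, 95% interval -0.09 to 0.57) was not called (edgeR adjusted p = 0.942). The ratio of Nde1 to Ndel1 per kilobase of exon was 1.69 and 1.89 in dKO libraries and 1.43 and 1.63 in wt libraries. Nde1 transcript thus exceeded Ndel1 transcript in all 4 libraries. The ratio differed by 0.23 on the log2 scale between dKO and wt cells, and its 2 libraries differed by 0.16 within dKO and 0.19 within wt cells (exact permutation test, two-sided, p = 0.333, the smallest p that 2 against 2 libraries allow).

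Pafah1b1 encodes LIS1, which binds the dynein motor domain and is the gene lost in a human lissencephaly. Pafah1b1 (ENSMUSG00000020745, chromosome 11, 74487451 to 74538172) had 315 and 293 CPM in dKO libraries and 289 and 279 CPM in wt libraries. Both dKO libraries were higher, by a margin smaller than the spread within either genotype. The log2 fold change was 0.10 (SE 0.11, 95% interval -0.18 to 0.38, edgeR adjusted p = 0.981). Its copy Pafah1b1-ps2, 90.9% identical over 1229 aligned bases in GENCODE M21, had no row in the count table, and reads from it could reach Pafah1b1.

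Dync1h1, the heavy chain that carries the motor of cytoplasmic dynein, had the most counts of the 10. Dync1h1 (ENSMUSG00000018707, chromosome 12, 111839662 to 111905155) had 1258 and 1027 CPM in dKO libraries and 1011 and 921 CPM in wt libraries. The lower dKO library was close to the higher wt library, and the spread within dKO cells was larger than that gap. The log2 fold change of Dync1h1 was 0.24 (SE 0.15, 95% interval -0.13 to 0.61, edgeR adjusted p = 0.950), a value that was 0.09 without dKO replicate 1 and 0.39 without dKO replicate 2. Dctn1, the p150 subunit through which dynactin binds dynein and microtubules, was almost level over the 4 libraries. Dctn1 (ENSMUSG00000031865, chromosome 6, 83115914 to 83150111) had 93.8 and 93.5 CPM in dKO libraries and 93.9 and 91.4 CPM in wt libraries. Its log2 fold change was 0.02 (SE 0.11, 95% interval -0.26 to 0.29, edgeR adjusted p = 0.995).

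Numa1 encodes NuMA, which gathers microtubule minus ends at spindle poles and anchors dynein at the cell cortex. Numa1 (ENSMUSG00000066306, chromosome 7, 109082688 to 109163473) had 278 and 236 CPM in dKO libraries and 241 and 247 CPM in wt libraries. The 2 wt libraries lay between the 2 dKO libraries. This gave a log2 fold change of 0.08 (SE 0.13, 95% interval -0.24 to 0.40, edgeR adjusted p = 0.990), and without dKO replicate 1 it was -0.04.

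Tpx2 encodes the activator of Aurora-A, and Aurka the kinase itself. Tpx2 (ENSMUSG00000027469, chromosome 2, 152673700 to 152721057) had 361 and 339 CPM in dKO libraries and 345 and 329 CPM in wt libraries, and the genotypes overlapped. Its log2 fold change was 0.05 (SE 0.12, 95% interval -0.23 to 0.34, edgeR adjusted p = 0.993). Aurka (ENSMUSG00000027496, chromosome 2, 172181690 to 172196035) had 110.4 and 111.3 CPM in dKO libraries and 113.3 and 111.4 CPM in wt libraries. Both dKO libraries were lower, by a margin far below the spread within either genotype, and its log2 fold change was -0.02 (SE 0.11, 95% interval -0.29 to 0.25, edgeR adjusted p = 0.995). The ratio of Tpx2 to Aurka per kilobase was 1.77 and 1.65 in dKO libraries and 1.65 and 1.60 in wt libraries. It differed by 0.07 on the log2 scale between dKO and wt cells (exact permutation test, two-sided, p = 0.667), less than the 0.11 between the 2 dKO libraries.

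Plk1 encodes the kinase that drives centrosome maturation and mitotic entry. Plk1 (ENSMUSG00000030867, chromosome 7, 129302951 to 129313389) had 111 and 94.0 CPM in dKO libraries and 101 and 87.0 CPM in wt libraries. The genotypes overlapped, and replicate 2 was again the lower library in both. Its log2 fold change was 0.12 (SE 0.15, 95% interval -0.23 to 0.48, edgeR adjusted p = 0.981), which was 0.004 without dKO replicate 1, 0.02 without wt replicate 2, 0.23 without wt replicate 1 and 0.24 without dKO replicate 2. A processed pseudogene, Plk-ps1, 93.5% identical over 1813 aligned bases, had 5 and 13 counts in dKO libraries and 9 and 26 counts in wt libraries, against 1805 and 1575 counts of Plk1 in dKO libraries and 1290 and 1324 in wt libraries.

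Bub1b encodes BubR1, a checkpoint kinase-like protein that holds back anaphase until kinetochores are attached. It had the largest log2 fold change of the 10. Bub1b (ENSMUSG00000040084, chromosome 2, 118423947 to 118467328) had 379 and 343 CPM in dKO libraries and 296 and 280 CPM in wt libraries. Both dKO libraries were above both wt libraries, and the gap between the nearest libraries exceeded the spread within either genotype. Its log2 fold change was 0.32 (SE 0.12, 95% interval 0.03 to 0.62), with an unadjusted p of 0.0376 and an edgeR adjusted p of 0.844, so it was not called. Leaving out dKO replicate 1 gave 0.25, and leaving out dKO replicate 2 gave 0.40. In bulk RNA a larger share of cells in mitosis and more RNA per cell cannot be told apart for Bub1b and the other mitotic transcripts.

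**Figure D2:**
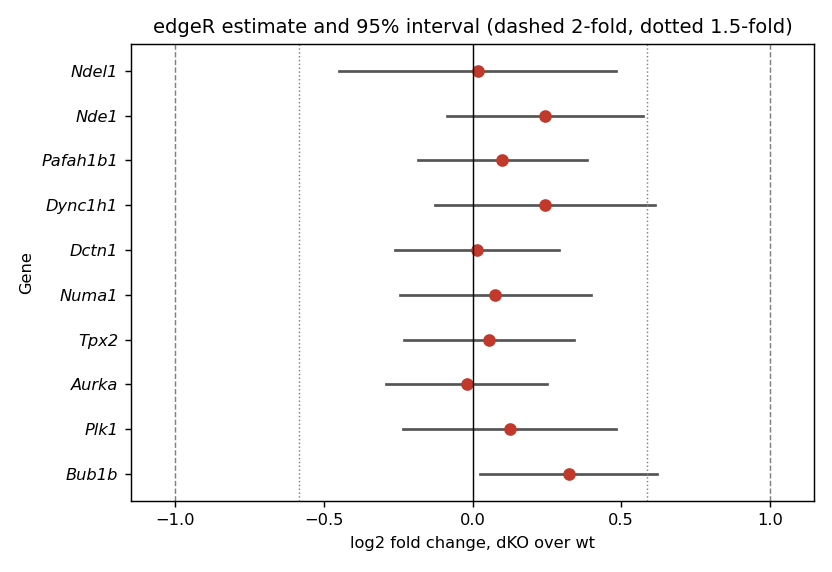
Log2 fold change (dKO over wt) of each transcript with its 95% interval from edgeR; dashed lines mark a 2-fold and dotted lines a 1.5-fold change. All 10 intervals stay inside the dashed lines, the interval of Bub1b starts just above 0, and those of Bub1b and Dync1h1 pass the dotted line on the right.

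**Figure D3:**
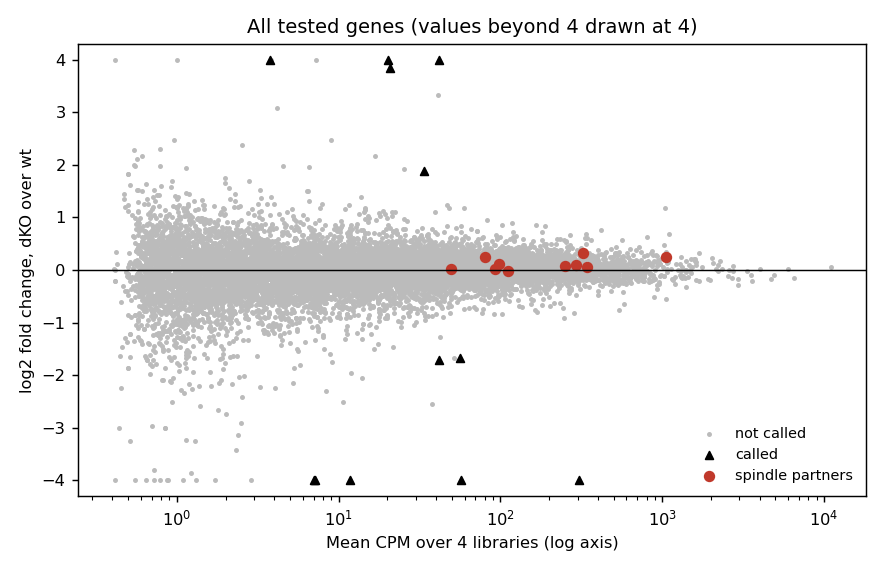
Log2 fold change (dKO over wt) against mean CPM (log axis) for 14027 tested genes; triangles are the 12 called genes and red points the 10 spindle partners. The spindle partners sit in the well expressed part of the cloud, near 0 and away from the called genes.

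The level of each transcript per kilobase of exon allowed the genes to be set beside each other. Bub1b had 88.7 and 80.1 CPM per kilobase in dKO libraries and 69.3 and 65.6 in wt libraries, and Tpx2 had 77.2 and 72.4 in dKO libraries and 73.8 and 70.3 in wt libraries. Dync1h1 followed with 80.3 and 65.6 CPM per kilobase in dKO libraries and 64.6 and 58.8 in wt libraries. The ranges of these 3 over the libraries overlapped. Bub1b exceeded Dync1h1 in all 4 libraries, while the place of Tpx2 was not fixed. Bub1b exceeded Tpx2 in both dKO libraries and was below it in both wt libraries. Plk1 and Aurka came next, at 39.6 to 50.4 and 43.6 to 44.8 CPM per kilobase over the 4 libraries, and did not differ beyond their spread. Numa1 (29.8 to 35.2) and Pafah1b1 (29.0 to 32.8) overlapped too. Nde1 lay below Pafah1b1 in all 4 libraries at 21.5 to 28.7 CPM per kilobase. Ndel1 (13.2 to 17.0) and Dctn1 (14.0 to 14.4) were lowest and overlapped. The highest transcript exceeded the lowest by 6.16 and 5.92 times in dKO libraries and by 5.11 and 5.31 times in wt libraries.

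**Figure D4:**
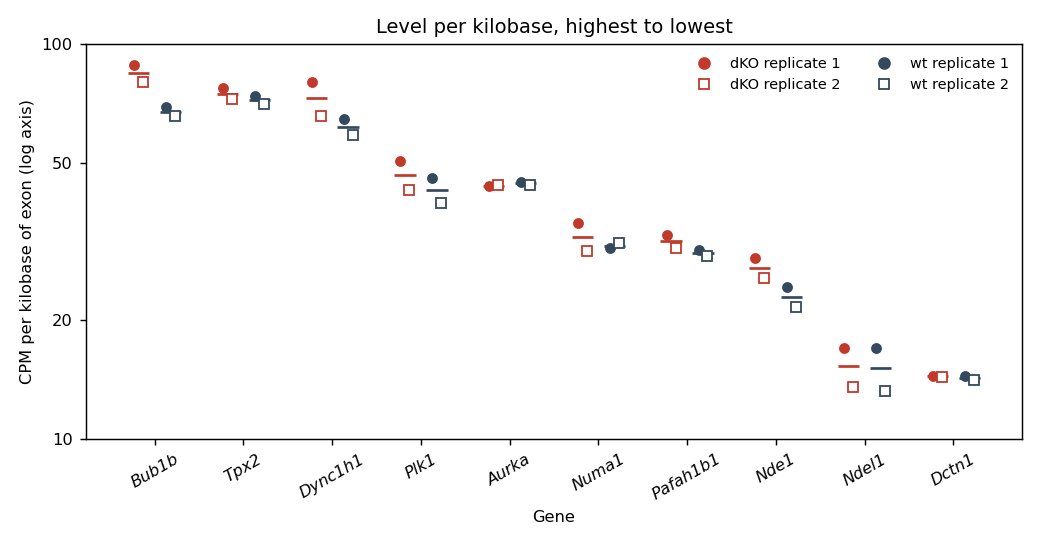
CPM per kilobase of annotated exon (log axis), ordered by the mean over 4 libraries, with dKO libraries in red and wt libraries in dark blue; filled circles are replicate 1, open squares replicate 2, bars the mean of 2. Bub1b, Tpx2 and Dync1h1 form the top group, and Ndel1 and Dctn1 the lowest.

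No other gene of the pathway lists passed the test. Lists of dynein, spindle and mitotic genes held 100 further genes, of which 98 were tested and 0 were called, where the share over all tested genes was 0.0855%. Their log2 fold changes were positive for 60 and negative for 38, with a median of 0.04, where all tested genes had 6966 positive and 7061 negative. Of the 98, 6 had an unadjusted p under 0.05, 5 of them higher in dKO cells, where the shares over all tested genes were 5.57% and 2.87% for those higher in dKO cells. Among the dynein subunits 9 were tested with 0 called and a median of 0.02. Dynlt3, a light chain, had a log2 fold change of -0.44. Dync1i1, an intermediate chain used mostly in neurons, had the largest at 1.98 (unadjusted p 0.0445, edgeR adjusted p = 0.888), from 16 and 26 counts in dKO libraries and 1 and 8 in wt libraries. The 12 dynactin subunits had 0 called, a median of -0.002 and values from -0.17 (Capzb, an actin capping subunit) to 0.07 (Capza1). All 12 had 95% intervals within a 2-fold change. Signs of such small list medians were not stable: without dKO replicate 1 the median was negative for the cortical NuMA (-0.06), Ran (-0.05), checkpoint (-0.06), spindle matrix (-0.02), mitotic entry (-0.005) and passenger complex lists (-0.003).

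Adaptors and regulators of dynein, 16 genes with Ndel1, Nde1 and Pafah1b1 among them, had 0 called and a median of 0.08. Clip1, which tracks growing microtubule ends, had 20.6 and 27.7 CPM in dKO libraries and 16.8 and 13.7 CPM in wt libraries (0.66, edgeR adjusted p = 0.782). Nudc, a chaperone cofactor that stabilises LIS1, had 240 and 224 CPM in dKO libraries and 283 and 319 CPM in wt libraries (-0.38, edgeR adjusted p = 0.779). In both genes the genotypes did not overlap and the adjusted test was not passed. The 10 genes of the cortical NuMA complex had 0 called and a median of 0.04, from Gnai2 (-0.19) to Insc (0.42), with Afdn the most abundant (0.16).

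Genes that act with Aurora-A and TPX2 numbered 10, with 0 called and a median of 0.11. Cep192, the scaffold that recruits Aurora-A and Plk1 to centrosomes, had 360 and 347 CPM in dKO libraries and 268 and 314 CPM in wt libraries (0.28, edgeR adjusted p = 0.907). Tacc3, an Aurora-A substrate on spindle microtubules, had -0.09, and Ajuba had 0.17. Ran and its partners had 0 of 6 called and a median of 0.06, from Ranbp1 (-0.14) to Kpna2 (0.14), with the import receptor Kpnb1 at 0.06. Augmin and the gamma-tubulin ring complex, which nucleate spindle microtubules, had 0 of 19 called and a median of 0.03, from Tubg1 (-0.44) through Pcnt (0.03) to Nedd1 (0.28). The 6 spindle matrix genes had 0 called and a median of 0.07, from Zfp207 (0.05) to the kinesin Kif11 (0.22), with Tpr at 0.14.

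Genes of mitotic entry, such as Plk1, had 0 of 10 called and a median of 0.03, from Pkmyt1 (-0.44) to Foxm1 (0.25), with Ccnb1, the mitotic cyclin, at 0.04. In the spindle assembly checkpoint, to which Bub1b belongs, 0 of 11 were called and the median was 0.06. Ttk, which encodes the kinase Mps1 that starts checkpoint signalling, had 122 and 109 CPM in dKO libraries and 79.0 and 69.2 CPM in wt libraries. Both dKO libraries were above both wt libraries. Its log2 fold change was 0.64 (SE 0.13, 95% interval 0.31 to 0.97, unadjusted p 0.0035, edgeR adjusted p = 0.463). Knl1, the kinetochore scaffold on which BubR1 gathers, was singled out after its values were seen. It had 152 and 140 CPM in dKO libraries and 107 and 117 CPM in wt libraries (0.38, edgeR adjusted p = 0.741). Bub1, the paralog of Bub1b and also singled out after its values were seen, had 313 and 287 CPM in dKO libraries and 299 and 303 CPM in wt libraries (-0.005). The other end of the list was Mad1l1 (-0.11), and Cdc20 was the most abundant (0.08). The chromosomal passenger complex had 0 of 4 called and a median of 0.07, from Aurkb (-0.19) to Birc5 (0.12), with Incenp at 0.07. Genes of G1/S and replication, set beside the mitotic lists, had 0 of 13 called and a median of 0.08, from Mcm6 (-0.12) to Rrm2 (0.23), with Mcm7 at -0.09.

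**Figure D5:**
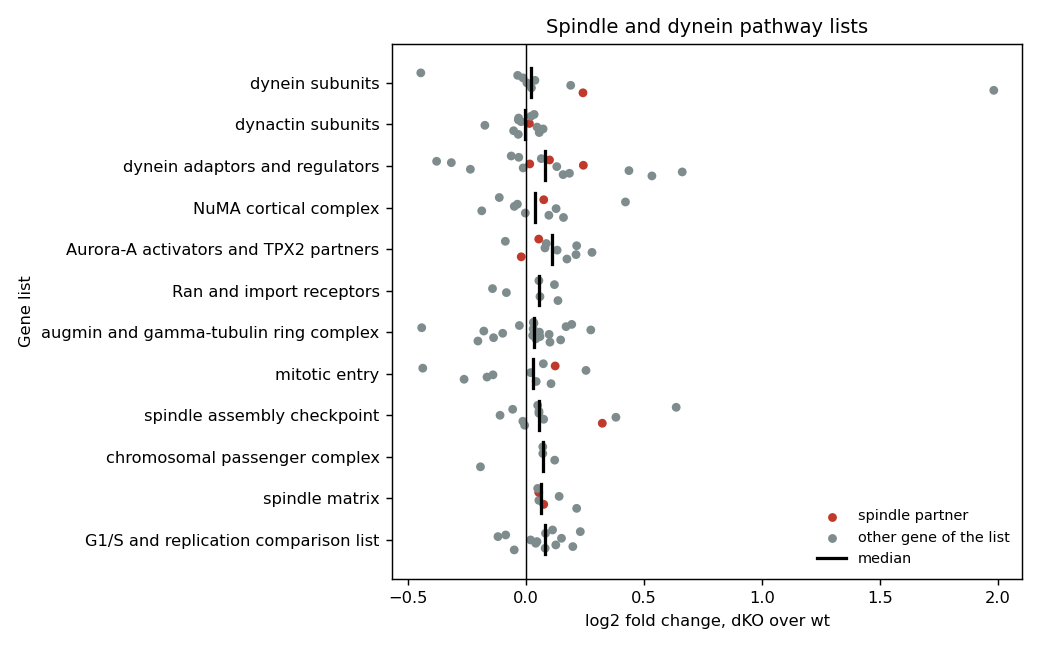
Log2 fold change (dKO over wt) of every tested gene in 12 lists, each point 1 gene, spindle partners in red, black bars the list median. The medians lie between -0.002 and 0.11, and the point far to the right is Dync1i1, which had at most 26 counts in a library.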

How the data were processed

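RNA of 4 libraries was measured, 2 dKO and 2 wt. Per the labels' protocols, libraries were built from Trizol-extracted total RNA by the Illumina TruSeq RNA method. The authors deposited raw read counts per Ensembl gene, 1 column for each library. Per the submitters' processing notes, the tools were TopHat2 2.0.6, TopHat and HTSeq, whose roles are not said. Neither build, annotation nor strand setting is given in the sources used here, so reads of overlapping genes are uncertain: in GENCODE M21, genes on the opposite strand share 403 and 48 exon bases with Dync1h1 (Gm35558, Gm17111), 156 with Plk1 (Gm44985, 7.1% of its exon bases), 80 with Numa1 (Il18bp) and 77 with Nde1 (Marf1). Positions of genes are those of the table. On chromosome 1 they reach 197054592, past the last gene end in GENCODE M21 (195323493). Gene positions are therefore not on GRCm38, the build of the promoter positions, and cannot be compared with those.

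The steps from the counts on were run here. GENCODE M21 gave symbols to 32919 of 37991 IDs and exon lengths. The filter was filterByExpr and the scaling TMM. The test was edgeR 4.0.16 (R 4.3.3; robust quasi-likelihood F test, genotype only) on all libraries, adjusted by Benjamini-Hochberg over 14027 genes. SEs and 95% intervals came from the F statistic. Scripts were tested on simulated counts of 14027 genes. Of 50 genes changed at each size, the test called 12% at 1.5-fold, 38% at 2-fold, 90% at 4-fold and 98% at 8-fold. Of its 137 calls in the simulation, 13.1% were false. Similar transcripts were found with blastn 2.17.0 (at least 90% identity over 200 bases). Alternatives were DESeq2 1.42.0, limma-voom (limma 3.58.1), other scalings and filters, a replicate block and each library left out.

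Members and gene lists were chosen with earlier results of these data known, so lists are described by counts and medians with no test. All members are named, and from each list the genes with the highest and lowest log2 fold change and the highest CPM. Dynlt1b and Sox1 had no row here, and Dynlrb2 did not pass the filter. Every pair of libraries differed by more than counting noise (chi-square of 14.1 to 34.2 per degree of freedom).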

Additional observations from a re-analysis of the deposited data

How the results depend on the processing

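None of the 10 transcripts was called by DESeq2, limma-voom, the other scalings and filters or with any library left out, where the smallest adjusted p was 0.754. The replicate numbers of the labels do not say that libraries share a culture or a day. With a replicate block 1299 genes were called (9.26% of those tested) and 1 of the 10, Bub1b (0.32, edgeR adjusted p = 0.023), while Dync1h1 (0.112) and Nde1 (0.119) were not; deviations of same-numbered libraries had r = 0.694 across genes, their counts differed less (chi-square per degree of freedom of 14.1 and 16.6) than those within dKO (21.8) or wt cells (22.0), and with 2 pairs they are not shown to be paired. The block also gave 10 calls summed over the pathway lists, where every other setting gave 0. The count of 12 called genes was 80 with no filter and 96 by DESeq2, fell to 5 by limma-voom, and lay between 18 and 27 when a library was left out. Of 110 values of single transcripts under alternatives 6 had the opposite sign, all uncalled, in Ndel1, Dctn1 and Numa1. The median of the 10 was 0.0139 when dKO replicate 1 was left out and 0.185 when dKO replicate 2 was, and pathway list medians ran from -0.10 to 0.23, with the opposite sign in 13 of 132 cases, over 7 of 12 lists. The log2 difference in the Nde1 to Ndel1 ratio ran from 0.13 to 0.32 with 1 library left out, and that of Tpx2 to Aurka from 0.02 to 0.13. Per kilobase of the longest transcript instead of all exons, mean levels were 88.5 (Bub1b), 78.7 (Tpx2), 58.6 (Aurka), 34.9 (Numa1), 34.3 (Pafah1b1 and Nde1), 21.6 (Dctn1) and 20.7 (Ndel1), so that Aurka came above Plk1 (44.6) and Nde1 drew level with Pafah1b1. With 2 libraries per genotype, the 95% interval of Bub1b still reached a 1.54-fold change, the widest of the 10 on that side, and exact permutation cannot go below p = 0.333.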
